A study of Mus musculus with 10 samples.

Results

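H3K27me3 was compared between undifferentiated XT67E1 mouse embryonic stem (ES) cells and the same line treated with all-trans retinoic acid (atRA) for 4 days, with 1 library on each side out of 10 libraries in the series. XT67E1 is a female line, and its strain is labelled C3H/Pgk\*129. All cells were maintained in serum with LIF on gelatin, and the H3K27me3 antiserum came from T. Jenuwein. The same line was also profiled as embryoid bodies (EBs), formed by withdrawing LIF for 10 days, and for H3K4me3 (Diagenode antibody) in the same 3 states. H3K27me3 libraries of 2 lines of strain 129/Ola, LF2 and E14, exist for the undifferentiated state and for EBs of the same age. Every group holds 1 library, no sample without immunoprecipitation was used, and no label says which cell types a treated culture contains. A change within cells and a change in the mixture of cells therefore cannot be told apart.

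The regions compared were 10 kb bins of mm9 on chromosomes 1 to 19. A bin was kept if the 2 libraries together placed at least 20 read midpoints in it, and 224255 of 247265 bins (90.7%) were kept. Each H3K27me3 library of XT67E1 held 8380007 reads, of which 8021002 undifferentiated and 8014473 with atRA lay on autosomes. Each H3K4me3 library held 2252395 reads and each LF2 or E14 library 4531733. The equal totals show nothing of how strong each pull-down was, so every ratio is relative within a library. No mm9 gene annotation was used here, so regions are given by position, without gene names, exons or introns, and the ES cell identity of the libraries was not checked against marker genes.

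H3K27me3 is placed by Polycomb repressive complex 2 on the nucleosomes of silent genes, often as broad domains over genes of developmental regulators. H3K4me3 marks promoters that are active or poised, and in ES cells both marks lie together at many promoters of developmental genes, which are called bivalent. Retinoic acid binds nuclear receptors that act on DNA and drives ES cells out of self-renewal. Loss of H3K27me3 usually accompanies activation of a Polycomb target, and its gain accompanies stable silencing.

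Most of the genome held the same share of the H3K27me3 reads before and after atRA to within 2-fold, and bins with more than a 2-fold difference were few in both directions. The median log2 ratio of atRA to undifferentiated reads, scaled to autosomal reads and with 1 read added to each count, was -0.05 over all kept bins (quartiles -0.35 and 0.24), and 96.5% of bins lay within 2-fold. A bin was called when it differed by 2-fold or more and the exact binomial 95% interval of its ratio excluded 1. By this rule 1874 bins (0.836%) were higher with atRA and 4678 (2.09%) were lower. Scaling to reads in the bins of low coverage moved every log2 ratio up by 0.14, which gave 3624 higher (1.62%) and 2729 lower (1.22%). The balance of gain and loss thus changed sides with the scaling.

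The bins called in 1 direction under both scalings are named gained (1874 bins, 0.836%) and lost (2729 bins, 1.22%) in what follows. Intervals cover counting error only, without replicates, and were not adjusted over the bins. Single calls at low read number can therefore come from counting error alone. Among the 137419 bins with at least 50 reads, 1074 were gained (0.782%) and 643 lost (0.468%). Autosomal scaling alone gave 1074 higher and 1252 lower in these bins, so the balance depended on the scaling there too.

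**Figure D1:**
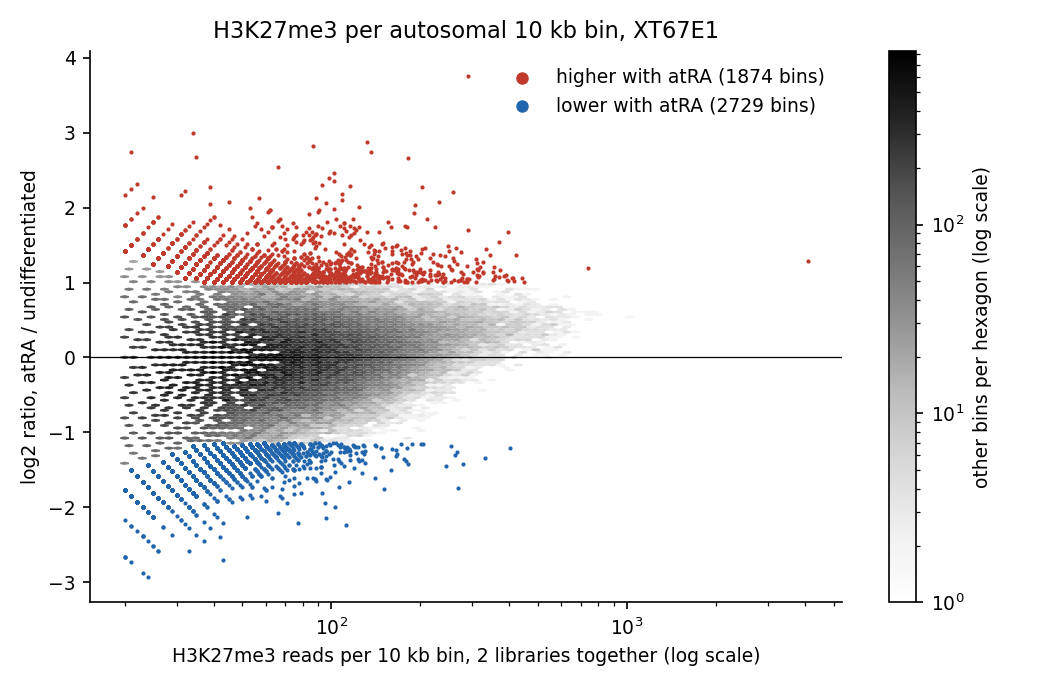
Log2 ratio of H3K27me3 (4 d atRA over undifferentiated, autosomal scaling) of each 10 kb bin against its reads in both libraries (log axis), with gained bins in red, lost bins in blue and other bins as a grey density. Losses crowd at the left, where bins hold few reads, and the grey cloud bends upwards among the bins with most reads.

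Read-rich chromatin drifted upwards after atRA. The median log2 ratio was -0.22 in bins with 20 to 29 reads, 0.28 in bins with 200 to 399 and 0.42 in the 653 bins with 400 or more. Lost bins made up 2.88% of the first class and 0.153% of the last, while gained bins made up 0.798% and 1.23%, with the highest share (2.22%) at 200 to 399 reads. Total reads include the compared libraries, so bins were also classed by the undifferentiated H3K27me3 reads of LF2 and E14, which play no part in the ratio. The order was the same. The median rose from -0.11 in bins with 0 to 14 LF2 and E14 reads to 0.17 in bins with 100 to 199 and 0.36 in the 1613 bins with 200 or more. Those 1613 bins averaged 174 undifferentiated and 218 atRA reads, and their median was 0.50 under low-coverage scaling. The efficiency of each pull-down was not measured, so a difference in it between the libraries and this drift cannot be told apart.

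**Figure D2:**
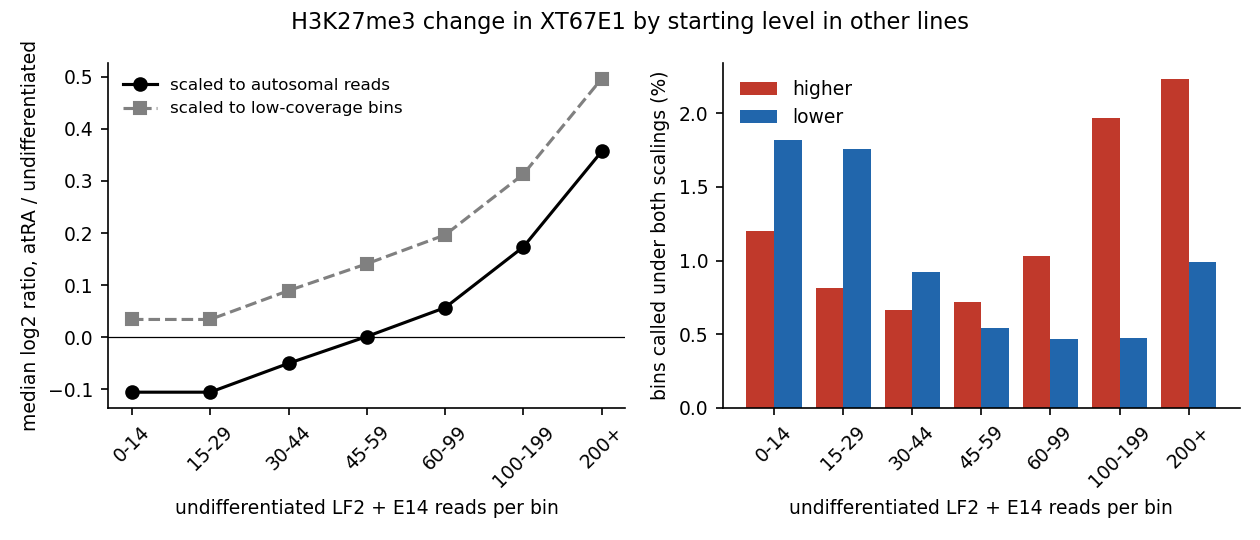
Left, median log2 ratio of H3K27me3 in XT67E1 under both scalings for bins classed by undifferentiated LF2 plus E14 reads. Right, share of each class gained or lost; gained bins reach 2.23% where these other lines hold 200 or more reads, and lost bins reach 1.82% where they hold 0 to 14.

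Most broad domains rich in H3K27me3 reads held a slightly larger share of these reads with atRA. Runs of at least 5 adjoining bins with at least 100 undifferentiated LF2 and E14 reads each gave 115 domains of 50 to 210 kb. Their median log2 ratio was 0.27 (quartiles 0.06 and 0.41, range -0.78 to 0.90), and 0 of them changed 2-fold as a whole. The interval lay above 0 under both scalings in 78 domains and below 0 in 9. The widest domain, chr7:150480001-150690000, held 2791 reads undifferentiated and 3501 with atRA (log2 ratio 0.33, interval 0.26 to 0.40). The domain with the highest ratio, chr19:44790001-44840000, went from 731 to 1367 reads (0.90). The domain with the lowest, chr7:80510001-80570000, went from 777 to 451 (-0.78). A lost bin occurred in 3 of the 115 domains and a gained bin in 10.

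A pair of wide domains was split, with 1 side depleted and the other kept. Both were picked out after their values were seen, as the domains that contain a bin at a log2 ratio of -1 or lower and another at 0 or higher. On chromosome 6, the side chr6:52100001-52160000 held 1479 reads undifferentiated, 627 with atRA and 1550 in EBs (atRA log2 ratio -1.24, interval -1.37 to -1.10). The adjoining side chr6:52160001-52230000 held 1829, 1991 and 1947 (0.12, interval 0.03 to 0.22). The step fell between neighbouring bins. The bin from 52150001 went from 286 to 146 reads, and the next, from 52160001, from 296 to 307. The sides were divided at this step, as also on chromosome 11. Their contrast in H3K27me3 therefore follows in part from the place of the cut.

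On chromosome 11 the order was the reverse along the coordinate. The side chr11:96110001-96170000 held 1347 reads undifferentiated and 1268 with atRA (-0.09, interval -0.20 to 0.03), and chr11:96170001-96250000 held 1711 and 871 (-0.97, interval -1.09 to -0.85). In EBs these sides held 1625 and 1762 reads, so that neither was depleted there. H3K4me3 differed on the depleted side of both domains. It went from 94 to 214 reads on chromosome 6 (log2 ratio 1.18, lower bound 0.83) and from 71 to 149 on chromosome 11 (1.06, lower bound 0.65). On the kept sides it went from 105 to 129 and from 107 to 136, with intervals that include 0.

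The other domains at least 130 kb wide were not split by this rule. Besides the widest, given above, the domain chr15:102740001-102900000 held 3469 and 3418 reads (-0.02, interval -0.09 to 0.05). The domain chr2:74480001-74610000 held 2962 and 3486 (0.24, interval 0.17 to 0.31), and chr5:120650001-120780000 held 1322 and 1685 (0.35, interval 0.25 to 0.46). Of all 115 domains, 2 met the rule.

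The 12 gained bins with the highest ratios (at least 50 reads) started from few reads and reached levels between 4.83 and 13.6 times higher. They held 9 to 34 reads undifferentiated and 57 to 270 with atRA, where the medians over all kept bins were 30 and 28. The strongest was chr1:121310001-121320000, with 19 reads undifferentiated, 270 with atRA and 170 in EBs, a log2 ratio of 3.76 (interval 3.16 to 4.58). H3K4me3 in this bin went from 182 reads to 21. All 10 of its 1 kb steps held more H3K27me3 reads with atRA, and the step with most went from 1 read to 45. Next to it, the kilobase with most H3K4me3 went from 55 reads to 8.

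The bin chr7:152040001-152050000 held 15 H3K27me3 reads undifferentiated, 117 with atRA and 84 in EBs (2.88, interval 2.18 to 3.85). Its H3K4me3 was the strongest of the 12, at 230 reads undifferentiated and 48 with atRA. The bin chr4:135800001-135810000 held 10, 77 and 104 H3K27me3 reads (2.83), the only 1 of the first 7 that was higher in EBs than with atRA, with H3K4me3 at 68 and 31. The bin chr11:120520001-120530000 held 17, 119 and 82 (2.74), with H3K4me3 at 136 and 37. Gain and promoter mark could share a single kilobase. In chr11:117820001-117830000 (19 reads undifferentiated, 97 with atRA), the kilobase from 117829001 went from 1 to 32 reads in H3K27me3 and from 75 to 24 in H3K4me3.

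Lower H3K4me3 after atRA was shared by nearly all of these bins. Their median went from 107.5 H3K4me3 reads to 32, where the median over all kept bins was 7 in each state. The H3K4me3 interval lay below 0 in 11 of the 12, and the median H3K4me3 log2 ratio was -1.80. The exception was chr7:31260001-31270000, which held 7 H3K4me3 reads in each state. It is the last bin of the gained locus chr7:31220001-31270000. Over that locus H3K4me3 went from 170 to 50 reads and H3K27me3 from 152 to 466. In the bin itself H3K27me3 went from 15 to 78 reads with atRA and stood at 23 in EBs, the only bin of the 12 whose EB interval includes 0. The other lines carried more of the mark from the start. Per 1e6 autosomal reads, the median of the 12 bins was 1.93 in undifferentiated XT67E1, 11.5 with atRA, 4.70 in undifferentiated LF2 and 8.95 in undifferentiated E14. E14 stood above XT67E1 in 12 of 12 bins and LF2 in 10. The choice of these bins favours low counts in the undifferentiated XT67E1 library, so these levels are a description.

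**Figure D3:**
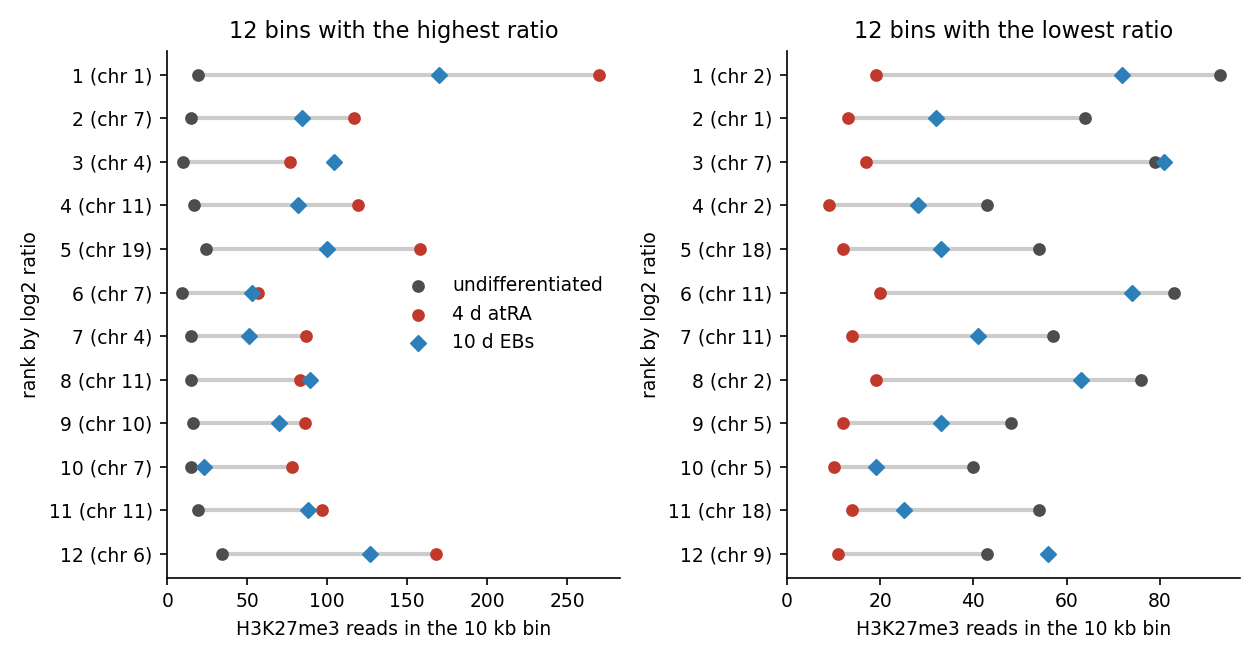
H3K27me3 reads in the 12 bins with the highest (left) and the 12 with the lowest (right) log2 ratio among called bins with at least 50 reads, undifferentiated (grey), after 4 d of atRA (red) and in 10 d EBs (blue diamonds). On the left the grey points lie between 9 and 34 reads and the EB points between 23 and 170; on the right the atRA points lie between 9 and 20.

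Gains were mostly single bins. Called bins joined over gaps of at most 1 bin gave 1664 gained loci, of which 1527 (91.8%) were 1 bin wide, 40 had at least 3 called bins and 6 at least 5. Summed H3K4me3 was lower with atRA in 38 of the 40 (median log2 ratio -0.76). Of single kept bins with at least 20 H3K4me3 reads, 23708 of 49529 were lower.

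The longest gained locus was chr17:12770001-12910000, where 13 of 14 bins were called. It held 492 reads undifferentiated, 1183 with atRA and 648 in EBs (atRA log2 ratio 1.27, interval 1.11 to 1.42). Joined over gaps of up to 3 bins, a limit chosen after the values were seen, the gain extended over chr17:12630001-12910000, with 1203 and 2636 reads (1.13, interval 1.03 to 1.23). H3K4me3 over this stretch was low in both states, at 228 and 213 reads. A new H3K4me3 signal stood just past its end. The bin from 12930001 went from 11 to 78 H3K4me3 reads and stood at 49 in EBs, while its H3K27me3 stayed at 66 and 69 reads. Beyond it, the bins from 12940001 and 12950001 held 28 and 25 H3K27me3 reads undifferentiated and 20 and 14 with atRA. Both intervals include 0, so these differences lay within counting error.

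At 4 of the other named gained loci, the H3K27me3 gain lay over H3K4me3 whose interval was below 0 with atRA. The locus chr11:117790001-117840000 held 123 H3K27me3 reads undifferentiated, 379 with atRA and 368 in EBs (1.62, interval 1.33 to 1.93), and H3K4me3 went from 283 to 108 reads (-1.38). The locus chr15:74340001-74410000 held 358, 801 and 674 (1.16), and H3K4me3 went from 148 to 67 (-1.13). The locus chr7:28140001-28200000 held 240, 557 and 440 (1.21), with H3K4me3 at 170 and 112. These 3 had EB levels closer to the atRA library than to the undifferentiated one. The locus chr7:51830001-51880000 held 197, 506 and 294 (1.36), with H3K4me3 at 121 and 76. The locus chr5:114960001-115030000 held 300, 627 and 367 (1.06), and its H3K4me3 interval included 0 (142 and 120 reads). In both, EBs lay nearer to undifferentiated cells.

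The 12 lost bins with the lowest ratios fell between 3.66 and 4.70 times, from 40 to 93 reads undifferentiated to 9 to 20 with atRA. The lowest was chr2:17960001-17970000, with 93 reads undifferentiated, 19 with atRA and 72 in EBs (-2.23, interval -3.09 to -1.57). All 10 of its 1 kb steps were lower. Its H3K4me3 stayed at 51 and 50 reads. The bin chr1:170330001-170340000 held 64, 13 and 32 H3K27me3 reads (-2.21), and chr7:80740001-80750000 held 79, 17 and 81 (-2.15).

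H3K4me3 was rich (at least 60 reads in both libraries together) in 10 of the 12 named gained bins and in 2 of the 12 named lost bins, where 3.59% of all kept bins and 7.44% of all lost bins were rich. The H3K4me3 interval lay above 0 in 0 of the 12 lost bins and below 0 in 1. EBs kept most of the mark, with 19 to 81 reads per bin and an interval below 0 in 4 of the 12.

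Lost loci were also short, with 2334 of 2509 (93%) at 1 bin, 26 with at least 3 called bins and 5 with at least 5. Summed H3K4me3 was higher with atRA in 21 of the 26 (median log2 ratio 0.31). Of single kept bins with at least 20 H3K4me3 reads, 25821 of 49529 were higher. The longest was chr9:72650001-72770000, with 9 of 12 bins called. It held 577 reads undifferentiated, 210 with atRA and 593 in EBs (-1.45, interval -1.69 to -1.23). H3K4me3 over it went from 116 to 191 reads, most of it in the first bin, which went from 23 to 93. EBs did not show the depletion.

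The loss on chromosome 6, chr6:52090001-52150000, was the most read-rich of the named lost loci, at 1254 reads undifferentiated, 507 with atRA and 1337 in EBs (-1.30, interval -1.46 to -1.16). It overlaps the depleted side of the split domain above, and its H3K4me3 stood at 80 and 167 reads. The locus chr2:115840001-115900000 held 456, 169 and 395 (-1.43), and its H3K4me3 went from 50 to 158 (1.64, interval 1.19 to 2.15), the highest H3K4me3 ratio of the 12 named loci. The locus chr11:18880001-18930000 held 485, 190 and 507 (-1.35), with H3K4me3 at 43 and 116 (1.41). In these 3 loci the mark was again low in the atRA library alone of the 3 XT67E1 libraries.

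A pair of lost loci lay in the stretch chr1:170090001-170380000, which held 12 lost bins and 0 gained bins over 290 kb. It held 1156 reads undifferentiated, 551 with atRA and 874 in EBs (-1.07, interval -1.22 to -0.92). Its part chr1:170290001-170380000 held 438, 160 and 275 (-1.45), with H3K4me3 at 63 and 122 (0.94). Its part chr1:170090001-170150000 held 255, 106 and 194 (-1.26), with H3K4me3 level at 49 and 48. In this stretch the EB library lay between the others.

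**Figure D4:**
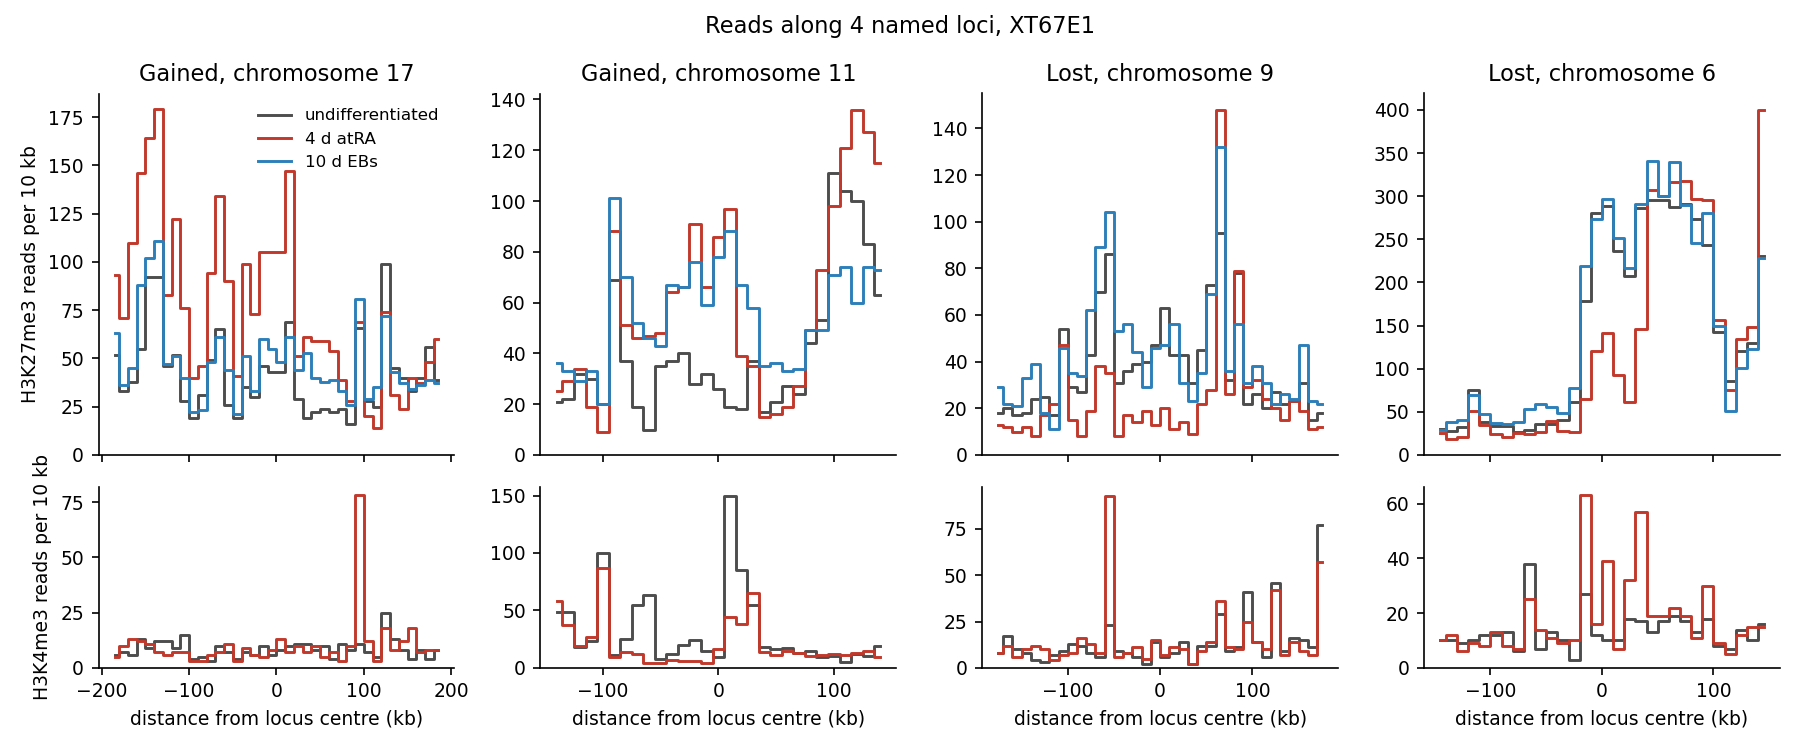
Reads per 10 kb bin along 4 named loci against distance from the locus centre, H3K27me3 above (undifferentiated grey, 4 d atRA red, 10 d EBs blue) and H3K4me3 below (undifferentiated and atRA). H3K27me3 with atRA lies above both other states on chromosome 17 and below both on chromosomes 9 and 6; on chromosome 11 atRA and EBs rise together over the locus as H3K4me3 falls from 283 to 108 reads.

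Bins next to called bins tended to differ in the same direction. Around gained bins with at least 50 reads, the pooled log2 ratio was 1.24 in the bin, 0.49 at a distance of 10 kb, 0.35 at 20 kb, 0.24 at 50 kb and 0.15 at 200 kb. Around lost bins it was -1.36, -0.50, -0.38, -0.24 and -0.07. Under low-coverage scaling the lost flanks were at -0.36 at 10 kb, -0.10 at 50 kb and 0.07 at 200 kb, so their direction turned with distance. The value in the bin itself is fixed by the choice. Neighbours that were themselves called stayed in the pools, so part of the flank values also follows from the choice.

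Where H3K27me3 was gained in bins with at least 20 H3K4me3 reads, H3K4me3 was often lower, in libraries that had no part in calling the bins. Over all 1874 gained bins the median was 8 H3K4me3 reads in each state, and 704 of them (37.6%) had at least 20. The median H3K4me3 log2 ratio of these 704 was -0.66, against 0.00 over the 49529 kept bins with such reads. A 2-fold or greater drop in H3K4me3 occurred in 227 (32.2%, against 6.22% of all) and a rise of that size in 9 (1.28%, against 4.92%). Among the 243 gained bins rich in H3K4me3 the median was -0.96, with 113 at least 2-fold lower (46.5%, against 7.93% of 8047 rich bins) and 0 at least 2-fold higher (against 2.11%).

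Over lost bins as a whole the opposite lean was small. Many of these bins held few H3K27me3 reads. The classes of 20 to 29 and 30 to 39 reads held 632 and 921 lost bins, against 175 and 305 gained bins. Over 768 lost bins with at least 20 H3K4me3 reads the median was 0.04, with 45 at least 2-fold higher (5.86%) and 33 lower (4.3%). The shares over all kept bins were 4.92% and 6.22%. Among the 203 lost bins rich in H3K4me3 the median was 0.05, with 11 at least 2-fold higher (5.42%) and 6 lower (2.96%). The shares over all 8047 rich bins were 2.11% and 7.93%. Lost bins with at least 50 H3K27me3 reads stood further from their background. Of 223 such bins 25 were at least 2-fold higher in H3K4me3 (11.2%, against 5.61% of all bins with as many reads) and 5 lower (2.24%, against 5.17%), with a median of 0.22. In the 34 rich in H3K4me3 the median was 0.67, and 31 of 34 were above 0, against a median of 0.04 and 2102 of 3864 over all such rich bins.

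Read the other way, from H3K4me3 to H3K27me3, the 8047 rich bins gave the same order. Where H3K4me3 was 4-fold or more lower (112 bins) the median H3K27me3 log2 ratio was 0.45, and 22 bins (19.6%) were gained and 2 lost. Where it was lower by 2-fold to 4-fold (526 bins) the median was 0.29, with 91 gained (17.3%) and 4 lost. Where it stayed within 2-fold (7239 bins) the median was -0.10, with 1.8% gained and 2.57% lost. Where it was 2-fold or more higher (170 bins) the median was -0.36, with 0 gained and 11 lost (6.47%). The last class started with much more H3K27me3, at a median of 83.5 reads undifferentiated and 61.5 with atRA, against 25 and 23 over all rich bins.

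Both marks were also averaged around the kilobase with most H3K4me3 in each rich bin. In the 243 rich gained bins, that kilobase went from 34.6 to 19.7 H3K4me3 reads on average and from 2.93 to 10.1 H3K27me3 reads. At 20 kb on each side the H3K27me3 log2 ratio was down to 0.39 and 0.31. In the 34 rich lost bins with at least 50 reads, H3K27me3 at the centre went from 7.03 to 2.26 reads and H3K4me3 from 20.4 to 33.9. These 34 are a part of the 203 rich lost bins, whose median H3K4me3 log2 ratio was only 0.05. Over all 8047 rich bins the centre moved from 2.84 to 2.99 in H3K27me3 and from 35.4 to 33.9 in H3K4me3. The anchor lies inside a bin chosen for its H3K27me3 change, so the height and the place of the H3K27me3 shift follow from the choice. The H3K4me3 peak at the centre also follows from choice, because bins had to be rich in H3K4me3 and were centred on its highest kilobase. The H3K4me3 change between the states was not used to choose bins. The H3K27me3 maximum with atRA in gained bins lay at -2 kb (10.8 reads). The largest mean drop of H3K27me3 in lost bins lay at 2 kb (from 9.24 to 2.88 reads).

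**Figure D5:**
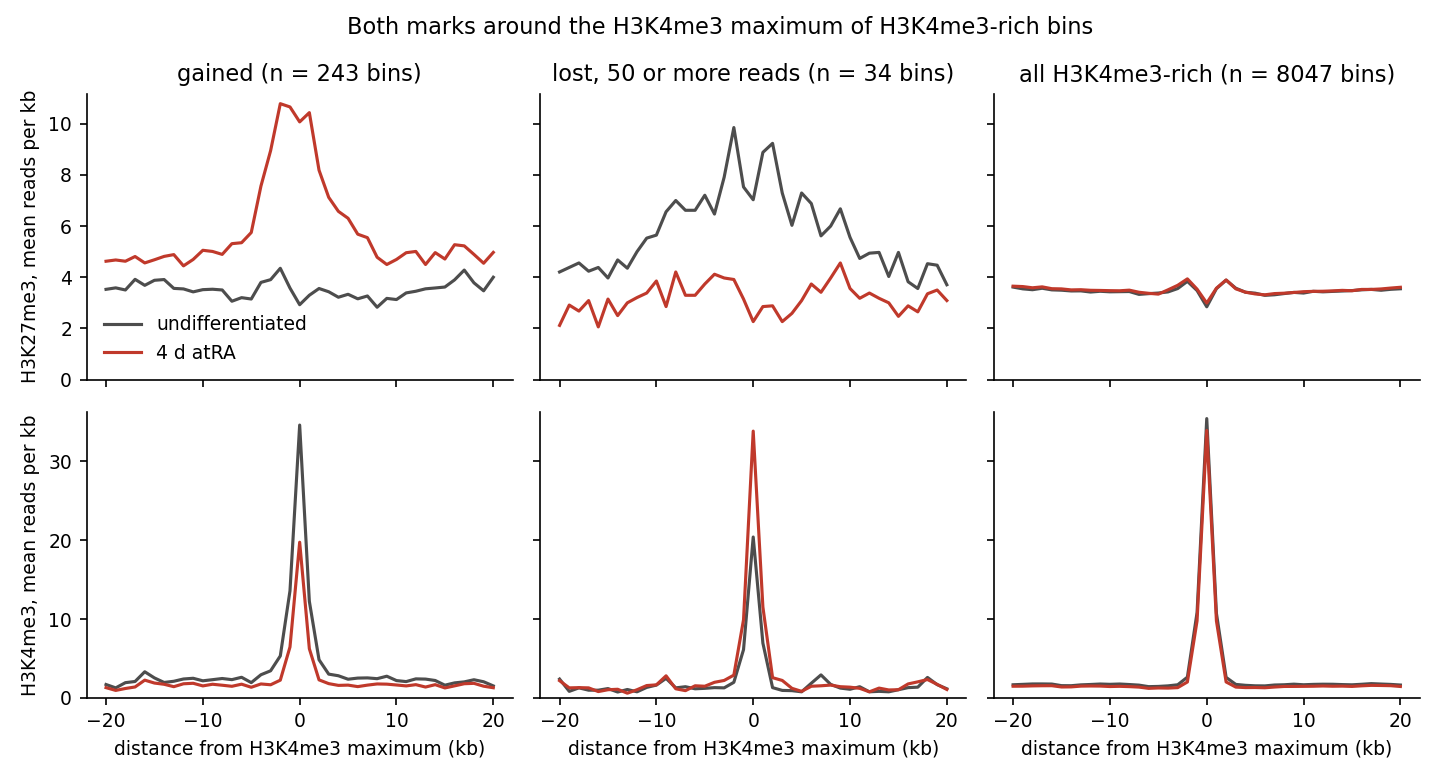
Mean reads per kb of H3K27me3 (top) and H3K4me3 (bottom) by distance from the kilobase with most H3K4me3, undifferentiated (grey) and after 4 d of atRA (red), for rich gained bins, rich lost bins with at least 50 reads and all rich bins. Gained bins show H3K27me3 at 10.1 against 2.93 reads at the centre, a shift fixed by the choice of bins, and H3K4me3 at 19.7 against 34.6; over all rich bins the states overlap.

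In EBs of XT67E1, a comparison that shares the undifferentiated library with the atRA comparison, gained bins had a median log2 ratio of 0.82, with 35.1% at least 2-fold higher (2.19% of all). The median of lost bins was -0.22, and 3.37% of them were lower by 2-fold or more (0.877% of all). The shared library ties these values to the choice of bins. The median H3K27me3 reads of gained bins were 17 undifferentiated, 39 with atRA and 31 in EBs. Those of lost bins were 27, 10 and 24. Over all kept bins the EB median was 30, so the EB level in gained bins was that of an ordinary bin.

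LF2 and E14 share no library with the atRA comparison. In LF2, gained bins had a median EB ratio of 0.30 against 0.05 over all bins, with 13.3% at least 2-fold higher (5.96% of all) and 1.48% lower (2.9% of all). In E14 the median was 0.24 against -0.00, with 12.4% higher (2.64% of all) and 3.49% lower (4.53% of all). Lost bins had a median of 0.02 in LF2, with 6.17% at least 2-fold higher and 5.85% lower. In E14 their median was -0.20, with 1.82% higher and 9.83% lower. Among lost bins with at least 50 reads it was -0.27 in both lines. Strain, day and treatment all differ between these comparisons and cannot be told apart.

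Single loci differed between the lines. The lost locus on chromosome 9 was lower in EBs of LF2 (526 reads undifferentiated, 268 in EBs) and of E14 (305 and 192), though not of XT67E1. The chromosome 6 locus went from 1108 to 774 in LF2 and from 1084 to 1487 in E14. The gained locus on chromosome 7 from 28140001 went from 244 to 654 in E14 (1.42, interval 1.21 to 1.64) and from 225 to 319 in LF2. The gained locus on chromosome 17 went from 263 to 420 in LF2 and from 305 to 415 in E14. That locus was higher after differentiation in each comparison, and the chromosome 6 locus had opposite directions in LF2 and E14. The adjoining kept side chr6:52160001-52230000 had the same directions, from 1637 to 1245 in LF2 and from 1833 to 2388 in E14. The opposite directions were therefore not particular to the lost locus.

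Gains were unevenly spread over the chromosomes. Chromosome 17 had the highest share of gained bins, 146 bins or 1.71%, followed by chromosomes 4 and 11 (1.21%) and 7 (1.14%). Chromosome 8 had the lowest shares, at 0.557% gained and 0.582% lost, and it held a median of 88 reads per bin against 53 to 63 on the other autosomes. Lost bins were most frequent on chromosome 11 (1.58%). Of 2407 windows of 1 Mb, chromosome 17 from 12 to 13 Mb had the most gained bins (20, with 0 lost), followed by chromosome 11 from 117 Mb (15, with 0 lost). The most lost bins were on chromosome 1 from 170 Mb (12, with 3 gained), chromosome 9 from 72 Mb (11, with 1 gained) and chromosome 2 from 115 Mb (10, with 0 gained).

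Very high read numbers need separate mention. Of the 653 bins with 400 or more reads, 8 were gained and 1 lost. The bin chr17:39980001-39990000 held 1188 reads undifferentiated, 2895 with atRA and 3381 in EBs (atRA log2 ratio 1.29), and its reads also went from 686 to 2172 in LF2 and from 1436 to 2763 in E14. Its H3K4me3 was high too, at 694 reads undifferentiated and 577 with atRA. Reads this dense in both marks set it apart from the other 8, which held 9 to 78 H3K4me3 reads in either library. The wide domain chr11:3020001-3100000 was similar, with 8733 H3K27me3 reads undifferentiated, 6231 with atRA, and 1613 and 1707 H3K4me3 reads. Whether these 2 regions reflect the mark or the way reads map there was not tested.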

How the data were processed

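The deposited files list read intervals of 200 bp and hold no values, so the other unit used here is the position itself. Coordinates are mm9 per the submitters' processing notes. Per the labels' protocols, fixed chromatin was sheared, immunoprecipitated and read on Illumina Genome Analyzers. No source used here names the aligner, the read filters or how 200 bp was reached. Each file was free of repeated intervals.

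Interval midpoints were counted in 10 kb autosomal bins (Python 3.11.15, numpy 2.4.6, pandas 2.3.3). Ratios used a pseudocount of 1 read and autosomal reads, or reads in the 120656 bins with 1 to 56 reads in the 2 libraries. Exact conditional binomial (Clopper-Pearson) intervals came from scipy 1.17.1 and cover counting error only. The calling step was tested on simulated counts, and the counting step was not. No p-value was computed, since each group holds 1 library.

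Named regions are the 12 highest and 12 lowest called bins with at least 50 reads and, in each direction, the 6 loci with most called bins, ties going to the locus with more reads. Members and lists were chosen with earlier results of these data known. The planned gene lists needed an mm9 annotation and were not used here. Split domains, wide-domain limits, the 3-bin gaps and checks on called bins with at least 50 reads were chosen after seeing the data.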

Additional observations from a re-analysis of the deposited data

How the results depend on the processing

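With 1 library per group no replicate could be left out, and depth limits single bins more than loci. No paired analysis was possible because each group holds 1 library. Called bins are given as higher and lower under autosomal scaling, then lower under both scalings (the higher count was the same under both). A minimum of 50 reads gave 1074, 1252 and 643. A pseudocount of 5 reads gave 1029, 2157 and 1092, and a 99% interval gave 1191, 2243 and 1092. A limit of 1.5-fold gave 7207, 10154 and 5306, and 3-fold gave 168, 458 and 289. Bins of 5 kb gave 6371, 7866 and 4815, and bins of 50 kb gave 43, 73 and 28. Low-coverage scaling alone gave 3624 higher and 2729 lower. At least 50 reads with a 99% interval, added after seeing the data, gave 988 higher and 558 lower under both scalings. The median H3K4me3 ratio of gained bins was -0.27 with a minimum of 10 H3K4me3 reads. Restricting to called bins with at least 50 reads, also added, gave medians for gained bins of 0.38 in E14 and 0.75 in XT67E1 EBs. For lost bins it gave 0.22 for H3K4me3, -0.27 in E14, -0.39 in XT67E1 EBs and -0.27 in LF2, where the sign reversed from 0.02. The other 19 values, from no read minimum, median-of-ratios scaling, other gaps between loci and leaving out chromosome 8 among others, moved less. The 36 named regions kept their direction in all 72 checks run on them, which were low-coverage scaling and a pseudocount of 5 reads. The regions came from bins already called under both scalings, as the most extreme bins or the longest loci. That outcome was therefore largely fixed by the choice. The cause of the shifts between settings was not tested.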
